A study of Mus musculus with 9 samples.

Results

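The genes described are the 7 Snail, Zeb and Twist genes of the mouse, Snai1, Snai2, Snai3, Zeb1, Zeb2, Twist1 and Twist2, which were taken by gene name from a table of 47729 genes. All 7 were in that table, in the authors' shorter table of 19210 genes with enough reads, and among the 17951 genes that entered the tests. RNA was sequenced from mouse embryonic stem cells (ESCs), pluripotent cells of the early embryo, in which doxycycline (dox) switches on a forced homodimer of E2A. The transgene encodes FLAG-tagged mouse E47, a splice form of E2A, tethered by a flexible linker to a second E47, under a tetracycline-response element upstream of Hprt. The groups were untreated cells (0 h) and cells given 1 µg/ml dox for 18 h or for 24 h, all in LIF/serum and all carrying the transgene, with 3 biological replicates each and 9 libraries in all. Dox-treated cells that lack the transgene were not analysed here, so the forced homodimer and dox itself cannot be told apart. One field of the labels gives dox times of 24 h and 48 h. The titles, the treatment entries and the methods give 18 h and 24 h, which were used.

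Epithelial-mesenchymal transition (EMT) is the change by which epithelial cells loosen their junctions and become motile, as happens in gastrulation and when neural crest leaves the neural tube. The Snail genes encode zinc-finger repressors that bind the E-box, CANNTG, and that silence E-cadherin (Cdh1) together with other junction genes. The Zeb genes encode larger repressors with zinc-finger clusters and a homeodomain that bind the same kind of site. Twist1 and Twist2 are basic helix-loop-helix (bHLH) proteins that work as dimers, often with an E protein such as E2A, whose own homodimers also bind E-boxes.

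Each library held between 22028363 and 26471569 reads on genes. Levels are given as FPKM, fragments scaled to exon length and to the number mapped, which allows levels to be compared roughly between genes. Merged exons came to 19942 nt for Zeb2 (29 transcripts) and 10266 nt for Zeb1 (12 transcripts), against 1621 nt for Snai1 (1 transcript). A length merged over transcripts can exceed that of any single mRNA, and would then understate the Zeb levels beside those of other members. The length behind the deposited FPKM is not given here. Tests used limma on log2(FPKM+0.1) over the 17951 genes whose FPKM averaged 0.1 or more, and log2 fold-changes below are on that scale unless edgeR, DESeq2 or another pseudocount is named. A gene was called when its Benjamini–Hochberg adjusted p was at most 0.05 and its absolute log2 fold-change at least 1. The 18 h and 24 h comparisons share the 0 h libraries and are not independent of each other. Tcf3, the gene for E2A itself, had 39.1±1.80 FPKM (mean±s.d., n=3) without dox, 110.1±5.52 after 18 h and 102±7.55 after 24 h, and reads from the transgene may count there.

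At 24 h compared with 0 h, 4 of the 7 genes were called upregulated (Snai1, Snai2, Zeb1 and Zeb2), where 2.07% of all genes tested were called upregulated. At 18 h, 2 of the 7 were called (Snai1 and Snai2), against 1.33% of all genes. The 18 h count was 0 with a pseudocount of 1, when Snai2 had a log2 fold-change of 0.98, and 3 with edgeR or DESeq2 on the recovered reads, which added Zeb1. The share of all genes that edgeR or DESeq2 called at 18 h is not given here, so that 3 is not comparable with the 1.33%. At 24 h edgeR called 4.06% of all genes in either direction. No member was called downregulated at either time, whereas 0.724% and 0.836% of all genes were at 18 h and 24 h. The 24 h count was 2 without the untreated replicate 1, which cost Zeb1 and Zeb2 their calls, and 1 with a pseudocount of 1, when Snai2 alone was called. The median log2 fold-change of the 7 was 0.78 at 18 h and 1.09 at 24 h, beside medians of -0.0030 and 0.0040 over all genes. The 3 dox libraries lay wholly above the 3 untreated libraries for 4 members at 18 h and for 5 at 24 h, whereas 14.4% and 16.7% of all genes did so. The study singled out some of these genes on the same libraries, so their direction here is not independent evidence. In RNA from whole cultures, more cells that express a gene and more RNA per cell cannot be told apart.

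**Figure D1:**
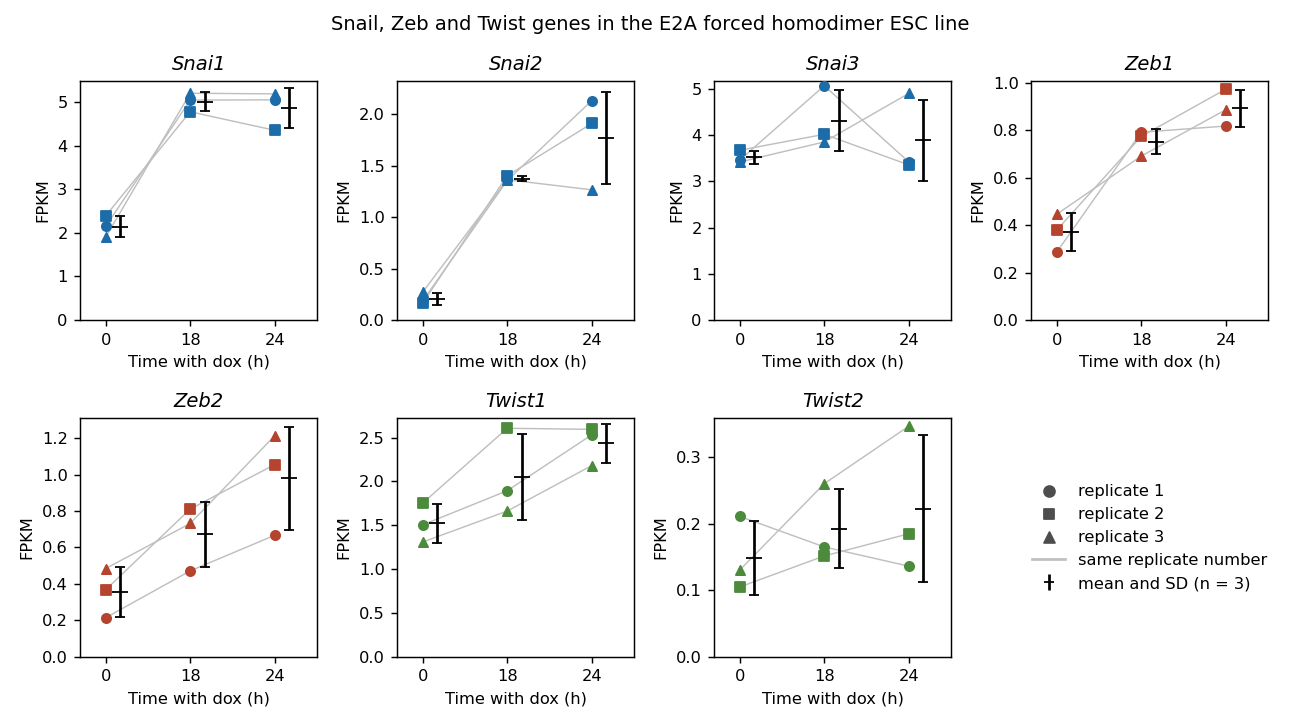
FPKM of each Snail, Zeb and Twist gene (vertical axes, each from 0) against hours with dox, with symbols for replicates 1, 2 and 3, grey lines joining libraries of the same replicate number, and black bars for the mean and s.d. of 3 libraries. Snai1 and Snai2 step up by 18 h, from means of 2.15 and 0.207 to 5.01 and 1.37 FPKM, Zeb2 climbs at both steps in each replicate number, and the Snai3 and Twist2 libraries overlap between 0 h and 24 h.

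Snai1, a Snail gene needed for gastrulation, lies at chr2:167538195-167542814 on the plus strand (GRCm38) with 3 exons. Its FPKM was 2.15, 2.39 and 1.9 in the untreated replicates, 5.04, 4.78 and 5.20 at 18 h, and 5.05, 4.35 and 5.19 at 24 h. Dox libraries formed a tight group more than 1.5 times above every untreated one, and the 18 h and 24 h libraries overlapped. Snai1 rose by a log2 fold-change of 1.19±0.108 (s.e.) at 18 h (limma, adjusted p=0.000671) and of 1.15±0.108 at 24 h (limma, adjusted p=0.000605). Leaving out each library in turn moved the 24 h value only between 1.07 and 1.22.

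The promoter of Snai1 is shown because it holds the only E-box found in the windows examined. RefSeq windows on GRCm38.p6, from 250 bases before to 50 bases after a gene's start, were at hand for 4 of the 7 members (Snai1, Zeb2, Twist1 and Twist2). They were searched on both strands for CANNTG, which reads alike on either strand. The form CACCTG, which is CAGGTG when read from the other strand, and the form CAGCTG were counted too. In the Snai1 window, chr2:167537945-167538244 on the plus strand, the E-box is in capitals and begins at position -126 from the start. The first of the 4 Zeb2 windows, chr2:45117393-45117692 on the minus strand, is given beside it as that of a called gene with no CANNTG.
Snai1: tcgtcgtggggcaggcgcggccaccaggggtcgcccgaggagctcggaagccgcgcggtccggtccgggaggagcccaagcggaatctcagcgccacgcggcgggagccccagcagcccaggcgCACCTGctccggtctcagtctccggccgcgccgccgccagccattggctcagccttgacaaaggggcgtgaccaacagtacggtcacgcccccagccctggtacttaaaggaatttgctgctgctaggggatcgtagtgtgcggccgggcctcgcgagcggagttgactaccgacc
Zeb2: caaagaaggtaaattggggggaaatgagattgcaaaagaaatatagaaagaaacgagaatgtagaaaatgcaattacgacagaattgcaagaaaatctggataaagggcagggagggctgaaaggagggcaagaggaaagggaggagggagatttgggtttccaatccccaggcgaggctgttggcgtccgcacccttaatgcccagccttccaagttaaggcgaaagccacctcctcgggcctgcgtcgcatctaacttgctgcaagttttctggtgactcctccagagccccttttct
The other 3 Zeb2 windows and those of Twist1 and Twist2 also held no CANNTG. Of 32851 promoter windows of this length, 72.3% held a CANNTG, 20.2% a CACCTG or CAGGTG and 16.3% a CAGCTG. These are matches of letters within 300 bases and say nothing about binding.

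Snai2 (Slug), a Snail gene best known from neural crest and mesenchymal cells, lies at chr16:14705852-14709385 on the plus strand with 3 exons. Its FPKM was 0.186, 0.164 and 0.272 without dox, 1.36, 1.40 and 1.36 at 18 h, and 2.13, 1.91 and 1.27 at 24 h. These values rest on 8 to 12 reads per untreated library, on 63 to 71 at 18 h and on 70 to 110 at 24 h. Every dox library stood above every untreated one, the 18 h libraries were nearly equal, and replicate 3 was the lowest at 24 h. Snai2 rose by a log2 fold-change of 2.28±0.215 at 18 h (limma, adjusted p=0.000776) and of 2.59±0.215 at 24 h (limma, adjusted p=0.000330), the largest change of any member and the 33rd highest of all genes tested. From the recovered reads, edgeR gave 3.08 for the same 24 h comparison (adjusted p=2.88e-05), since the added 0.1 FPKM weighs on so low a starting level. With a pseudocount of 1 the 24 h value was 1.19, the lowest of the alternatives. Within replicate numbers the FPKM ratio of 24 h to 0 h was 11.5 and 11.6 in replicates 1 and 2 and 4.66 in replicate 3.

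Snai3, the least studied Snail gene, lies at chr8:122454208-122460733 on the minus strand with 3 exons. It was the most abundant member without dox, with 3.46, 3.67 and 3.42 FPKM. At 18 h it had 5.06, 4.01 and 3.85 FPKM, and at 24 h 3.42, 3.35 and 4.90 FPKM. A single replicate stood high at each dox time, replicate 1 at 18 h and replicate 3 at 24 h. Its log2 fold-change came to 0.28 at 18 h (95% interval -0.08 to 0.63; limma, adjusted p=0.306) and 0.12 at 24 h (-0.23 to 0.48; limma, adjusted p=0.653). The untreated libraries lay below all the 18 h libraries but overlapped with those at 24 h, and without replicate 3 of 24 h the later value was -0.05. The upper bounds of both intervals lie below the lower bound for Snai1 at the same time.

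The makeup of the Snail family differed between untreated and dox-treated libraries. The summed FPKM of the 3 genes was 5.87±0.326 at 0 h, 10.7±0.679 at 18 h and 10.5±0.871 at 24 h (mean±s.d., n=3). Snai3 made up 59.9±1.09% of this sum at 0 h, 40.2±3.67% at 18 h and 36.8±5.69% at 24 h. Snai1 accounted for 36.5±2.25%, 46.9±2.97% and 46.2±1.27%, and Snai2 for 3.57±1.16%, 12.9±0.979% and 17.0±5.10%. For each gene the shares at 0 h did not overlap with those at either dox time, and the shares of Snai1 at 18 h and 24 h overlapped. The Snai2 share at 24 h was 20.1% and 19.9% in replicates 1 and 2 and 11.1% in replicate 3. These shares are levels of mRNA per length of gene and were not tested apart from the genes themselves.

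**Figure D2:**
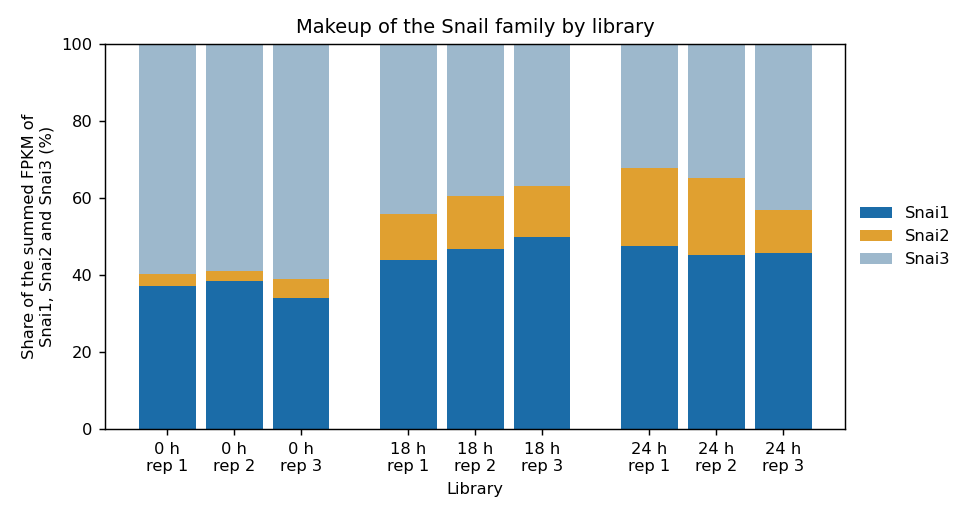
Share (%) of the summed FPKM of Snai1, Snai2 and Snai3 that each gene holds, as stacked bars from 0 to 100 for each of the 9 libraries. Snai3 holds 59.9% on average at 0 h and 36.8% at 24 h, and Snai2 widens from 3.57% to 17.0%.

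Zeb1, a repressor of E-cadherin and of the microRNAs that in turn restrain the Zeb genes, lies at chr18:5591860-5775467 on the plus strand with 16 merged exons. Its FPKM was 0.286, 0.379 and 0.446 without dox, 0.791, 0.774 and 0.691 at 18 h, and 0.817, 0.973 and 0.886 at 24 h. Libraries of the 3 time points did not overlap, with all 24 h libraries above those of 18 h and all 18 h libraries above the untreated ones. After 18 h its log2 fold-change of 0.87±0.180 (limma, adjusted p=0.0223) passed the adjusted p and fell short of the minimum fold-change. It no longer passed without the untreated replicate 1 (limma, adjusted p=0.0639) or without replicate 1, 2 or 3 of 18 h (0.0572, 0.0832 and 0.0630). At 24 h Zeb1 rose by 1.09±0.180 (limma, adjusted p=0.00763). The untreated replicate 1 was the lowest library, and without it the 24 h value was 0.95, below the minimum. On recovered reads edgeR already called Zeb1 at 18 h (log2 fold-change 1.02, adjusted p=0.00262), since no 0.1 FPKM is added there.

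Zeb2 (Sip1), which is required for neural crest delamination and takes part in early neural development, lies at chr2:44983632-45117395 on the minus strand with 18 merged exons. Its FPKM was 0.214, 0.368 and 0.484 in the untreated replicates 1, 2 and 3, 0.471, 0.811 and 0.732 at 18 h, and 0.667, 1.06 and 1.21 at 24 h. Replicate 1 was the lowest at each time point, and the spread between replicates within a time point was about as wide as the step from 0 h to 18 h, where the libraries overlapped. At 24 h all libraries stood above the untreated ones. Its log2 fold-change of 0.78±0.304 at 18 h did not pass (limma, adjusted p=0.150), and Zeb2 rose by 1.25±0.304 at 24 h (limma, adjusted p=0.0314).

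In limma without the replicate number as a block, the Zeb2 call at 24 h depended on single libraries. Without the untreated replicate 1 the adjusted p was 0.0947, and without the untreated replicate 2 it was 0.0576 (limma). Without replicate 2 or replicate 3 of 24 h it was 0.105 and 0.113, while the log2 fold-change stayed between 1.01 and 1.48 over all libraries left out. Within replicate numbers the differences were closer together. The FPKM ratio of 24 h to 0 h was 3.11, 2.87 and 2.51 in replicates 1, 2 and 3. On the log2(FPKM+0.1) scale the within-number differences were 1.29, 1.30 and 1.17, with a mean of 1.25 and an s.d. of 0.0739. With the replicate number as a block, the adjusted p was 0.0128 at 18 h and 0.00201 at 24 h (limma), though the 18 h value remained under the minimum fold-change. Libraries were not left out in turn from the fit with the block.

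Genes that overlap the Zeb genes had few reads. Zeb2os, an antisense RNA at chr2:45110707-45114087 on the plus strand, shares 653 nt of exon with Zeb2 and had 1 to 12 reads per library, with means of 0.0853, 0.160 and 0.210 FPKM at 0, 18 and 24 h. Zeb2 itself had 102 to 210 reads at 0 h and 338 to 659 at 24 h. Gm10125, which overlaps 198 nt of Zeb1 exon on the opposite strand, averaged at most 0.00701 FPKM at any time point. The libraries were strand-specific, but how strand was used in the counting was not given in the sources used here. For these overlapping stretches, the strand that the reads came from cannot be told apart.

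Twist1, a bHLH factor of mesoderm and cranial neural crest, lies at chr12:33957671-33959829 on the plus strand with 2 exons. Its FPKM was 1.5, 1.75 and 1.31 without dox, 1.89, 2.61 and 1.66 at 18 h, and 2.53, 2.59 and 2.18 at 24 h. Replicate 3 was the lowest at each time point, the 18 h libraries overlapped with the untreated ones, and those at 24 h stood above them. Its log2 fold-change of 0.39±0.176 at 18 h did not pass (limma, adjusted p=0.200). At 24 h it was 0.65±0.176 with a 95% interval of 0.25 to 1.05 (limma, adjusted p=0.0451), which passed the adjusted p and not the minimum fold-change. That pass was borderline. In limma the adjusted p was 0.113 without the untreated replicate 1, 0.108 without the untreated replicate 3 and 0.0591 without replicate 1 of 18 h. Without replicate 1, 2 or 3 of 24 h it was 0.0978, 0.141 and 0.0849 (limma). It passed without the untreated replicate 2 (0.0461) and without replicate 2 or 3 of 18 h (0.0323 and 0.0462; limma). With all libraries edgeR gave an adjusted p of 0.0511 and DESeq2 one of 0.0377. Within replicate numbers the FPKM ratio of 24 h to 0 h was 1.68, 1.48 and 1.67. With the replicate number as a block the adjusted p was 0.0354 at 18 h and 0.00522 at 24 h (limma), and Twist1 was still short of the minimum fold-change.

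Twist2, a close relative of Twist1 known from dermal mesenchyme, lies at chr1:91801461-91848028 on the plus strand with 2 exons. It was the lowest member at every time point, with 0.211, 0.105 and 0.130 FPKM in the untreated replicates, 0.165, 0.152 and 0.260 after 18 h, and 0.136, 0.185 and 0.347 after 24 h. These are 8 to 30 reads per library. The libraries of the 3 time points overlapped, and replicate 3 was the highest at both dox times. Twist2 stood at a log2 fold-change of 0.24 at 18 h (95% interval -0.48 to 0.96; limma, adjusted p=0.684) and 0.35 at 24 h (-0.38 to 1.07; limma, adjusted p=0.519). A log2 fold-change of 1 lies inside the 24 h interval, as does 0. Its antisense neighbour Gm29100 shares 1477 nt of exon with it and had at most 4 reads in any library. Twist1 held 91.0±3.33% of the summed FPKM of the Twist genes at 0 h and 91.5±4.59% at 24 h.

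**Figure D3:**
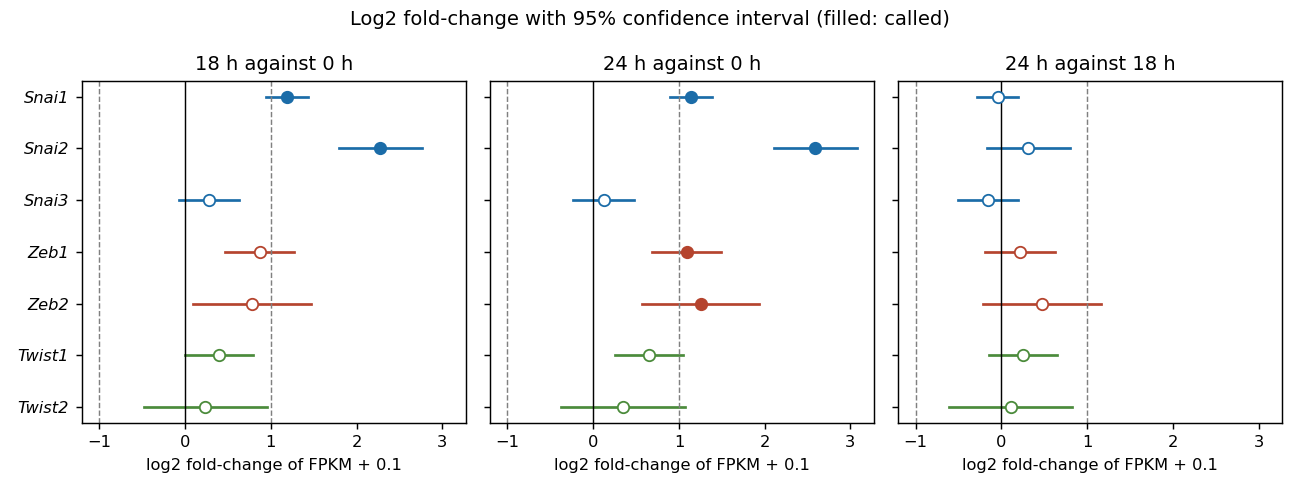
Log2 fold-change of FPKM+0.1 with its 95% interval (horizontal axes) for each member, at 18 h against 0 h, 24 h against 0 h and 24 h against 18 h, with filled points for called genes and dashed lines at the minimum fold-change. Snai2 stands apart from the other members, with 2.28 at 18 h and 2.59 at 24 h, and at 24 h against 18 h no point is filled and all the intervals include 0.

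Between 18 h and 24 h of dox, no member was called by limma, by edgeR or by DESeq2, which gave no adjusted p for Twist2. None had an unadjusted p under 0.05 by limma, where 5.59% of all genes did. Of all genes 0.0167% were called upregulated and 0.00557% downregulated. Snai1 was level, with a log2 fold-change of -0.04 (95% interval -0.29 to 0.20). Snai2 had 0.31 (-0.17 to 0.80), Zeb1 0.22 (-0.19 to 0.62) and Twist1 0.26 (-0.14 to 0.65). Snai3 was lower, with -0.16 (-0.51 to 0.20), and Twist2 had 0.11 (-0.61 to 0.83). Zeb1 was the only member whose 24 h libraries all stood above the 18 h libraries, which 6.81% of all genes did. Zeb2 had 0.48 (-0.21 to 1.16; limma, adjusted p=0.958). In edgeR with the replicate number as a block the Zeb2 value was 0.53 and the adjusted p 0.00996, below the minimum fold-change, and in limma with the same block the adjusted p was 0.311.

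The order of the members changed with dox. At 0 h Snai3 was the highest with 3.51±0.137 FPKM, followed by Snai1 with 2.15±0.245 and Twist1 with 1.52±0.223, and the libraries of these neighbours did not overlap. Zeb1 (0.370±0.0802), Zeb2 (0.355±0.135), Snai2 (0.207±0.0569) and Twist2 (0.149±0.0555) came next, each overlapping with the one after it. At 24 h the order was Snai1 (4.86±0.448), Snai3 (3.89±0.874), Twist1 (2.44±0.223), Snai2 (1.77±0.45), Zeb2 (0.979±0.281), Zeb1 (0.892±0.0779) and Twist2 (0.223±0.110). Here Snai1 overlapped with Snai3 and Zeb2 with Zeb1, while Snai2 now stood clear of both Zeb genes in FPKM. In reads, Zeb2 averaged 511 at 24 h and Snai2 93, over merged exons of 19942 and 2021 nt. The place of the Zeb genes among the others therefore depends on the exon length used. At 18 h the order was the same except that Zeb1 came before Zeb2, again with overlapping libraries. For scale, Cdh1, the E-cadherin gene, had 229±15.1 FPKM at 0 h.

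Genes whose levels followed each member were sought among 11579 genes that averaged 1 FPKM or more and had at least 200 nt of exons, by Pearson r over the 9 libraries. These values are a description, since all pairs share libraries and any gene that steps up with dox will resemble another that does. The genes most like Snai1 were Id1 (r=0.995), Plcxd1 (0.992) and Id3 (0.991). Id1 and Id3 are HLH proteins with no basic DNA-binding region that sequester E proteins, and their means went from 35.8 and 14.1 FPKM at 0 h to 212 and 246 at 18 h and 213 and 257 at 24 h. For Snai2 they were Ago1 (0.990), C2cd2l (0.987) and Cd109 (0.987), and for Zeb1 they were Gzf1 (0.989), Greb1l (0.988) and Fgd6 (0.987).

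Zeb2 was most like Sema3e (r=0.996), Igf2 (0.990) and Kctd12b (0.983). The mean of Sema3e, a secreted semaphorin, was 13.5 FPKM without dox, 18.4 after 18 h and 23.3 after 24 h. The mean of Zeb2 was also higher at each later time, though neither single step passed for Zeb2 in limma without a block. Twist1 was most like Arpc5 (0.961), Fubp1 (0.951) and Tgfbi (0.941). The highest values for Snai3 (Nme7, 0.891) and for Twist2 (Ankrd39, 0.961) came from genes whose means moved little, from 6.20 to 6.36 and from 1.01 to 1.15 FPKM between 0 h and 24 h.

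The other genes of the EMT programme were described with lists written from general knowledge, each read against the 2.07% of all genes called upregulated and the 0.836% called downregulated at 24 h. Of 38 epithelial genes, 2 rose and none was called downregulated by limma, and the median log2 fold-change was -0.04. On recovered reads edgeR, which called 4.06% of all genes in either direction, and DESeq2 each called 3, the additional gene being Mal2, an epithelial trafficking protein named after its values were seen. Mal2 had a log2 fold-change of -0.99 by limma (adjusted p=0.00286), just short of the minimum, and of -1.03 by edgeR (adjusted p=0.000855). Cdh3, the P-cadherin gene, had 15.7±1.98 FPKM in untreated cells, 53.5±5.17 after 18 h and 54.5±7.79 after 24 h, which at 24 h is a log2 fold-change of 1.79±0.122 (limma, adjusted p=0.000108). Krt8, a simple epithelial keratin, had 175±13.8, 444±46.4 and 410±64.8 FPKM, and a log2 fold-change of 1.21±0.122 (limma, adjusted p=0.000878). Without a minimum fold-change, 9 epithelial genes passed the adjusted p upwards and 6 downwards, where 11.6% of all genes passed in either direction.

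Cdh1, the textbook target of the Snail and Zeb repressors, was not lower with dox. Its FPKM was 214, 228 and 244 without dox, 244, 264 and 259 at 18 h, and 227, 251 and 245 at 24 h. Its log2 fold-changes were 0.16±0.0668 at 18 h (limma, adjusted p=0.171) and 0.07±0.0668 at 24 h (limma, adjusted p=0.506). With the replicate number as a block the adjusted p at 18 h was 0.0265 (limma), still with Cdh1 higher and not lower. Epcam, an epithelial adhesion gene, fell slightly, from 115±10.1 FPKM at 0 h to 93.9±3.93 at 24 h (log2 fold-change -0.29, limma, adjusted p=0.0313), short of the minimum fold-change. Esrp1, an epithelial splicing factor, had 19.7±0.405 FPKM at 0 h and 17.9±1.77 at 24 h (log2 fold-change -0.14, limma, adjusted p=0.408).

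Of 32 mesenchymal genes tested, 3 rose at 24 h (Pdgfrb, Cdh6 and Cdh11) and the median log2 fold-change was 0.29. On recovered reads edgeR, which called 4.06% of all genes, and DESeq2 each called 4, the additional gene being Mmp9, a matrix protease named after its values were seen, which was lower (edgeR log2 fold-change -1.45, adjusted p=0.0146). At any fold-change, limma passed 5 of the 32 upwards and 1 downwards, where 11.6% of all genes passed in either direction. Pdgfrb, a growth factor receptor of mesenchymal cells, went from 0.960±0.327 to 2.09±0.209 FPKM, a log2 fold-change of 1.10 (limma, adjusted p=0.0185). Cdh11 and Cdh6, cadherins of mesenchyme and neural crest with means under 1 FPKM over all libraries, were named after their values were seen and had log2 fold-changes of 2.37 and 1.28. Without replicate 2 or replicate 3 of 24 h only 1 of the 3 was called, and without the untreated replicate 1 there were 2. Cdh2, Fn1 and Vim did not pass. Cdh2, the N-cadherin gene, had 3.93±0.946 FPKM at 0 h and 4.81±0.686 at 24 h (limma, adjusted p=0.270), and Fn1, fibronectin, had 60.3±9.41 and 56.3±3.08 (limma, adjusted p=0.663). Vim, vimentin, had 25.4, 49.9 and 45.2 FPKM at 0 h and 39.8, 58.7 and 61.6 at 24 h, with replicate 1 the lowest each time as for Zeb2 (limma, adjusted p=0.337). With the replicate number as a block the adjusted p was 0.00607 for Vim and 0.0405 for Cdh2 (limma), with log2 fold-changes of 0.44 and 0.30.

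Of 16 other EMT transcription factors tested, 3 rose at 24 h (Hand1, Tcf3 and Sox9), with a median log2 fold-change of 0.40. Without a minimum fold-change, 5 passed the adjusted p upwards and 2 downwards, where 11.6% of all genes passed in either direction. The 2 lower genes, named after their values were seen, were Hmga2, a chromatin protein, with 11.9±2.80 FPKM in untreated cells and 6.19±1.45 after 24 h (limma, adjusted p=0.0470), and Tcf15, a bHLH factor, with 28.3±1.71 and 15.8±2.74 (limma, adjusted p=0.0146). Hand1, a bHLH factor of trophoblast and lateral mesoderm from the same wider family as Twist, had the largest change, with 1.22±0.385 FPKM in untreated cells, 9.2±1.43 after 18 h and 11.6±0.764 after 24 h. At 24 h this is a log2 fold-change of 3.19±0.207 (limma, adjusted p=9.32e-05). Tcf3 rose by 1.38±0.0687 (limma, adjusted p=3.11e-05), with the reservation on transgene reads given above. Sox9, named after its values were seen, averaged 0.0398 FPKM at 0 h and 0.248 at 24 h and was called in only some of the fits that left out a library. Sox9 passed the filter of 0.1 FPKM only through the dox libraries, so no conclusion is drawn from its call. Gsc and Six2, also named after their values were seen, passed the filter in the same way, with means of 0.0110 and 0.0663 FPKM at 0 h. Since Sox9 is in the counts above and these genes are in the median, no conclusion is drawn from those either. The other E proteins had smaller changes. Tcf12 (HEB) had 3.20±0.330 FPKM at 0 h and 4.86±0.516 at 24 h (log2 fold-change 0.59, limma, adjusted p=0.0175), and Tcf4 (E2-2) had 1.64±0.173 and 2.22±0.0913 (0.42, limma, adjusted p=0.0553; 0.0142 with the replicate block).

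Cofactors and regulators of the Snail, Zeb and Twist proteins were listed as well. None of 20 corepressor genes and none of 21 genes for the turnover of Snail and Twist proteins was called at 24 h by limma, edgeR or DESeq2, although 8 of each had an unadjusted p under 0.05 by limma, where 28.2% of all genes did. Without a minimum fold-change, 3 corepressor genes passed the adjusted p, all lower, and so did 3 turnover genes, of which 1 was higher and 2 were lower, where 11.6% of all genes passed in either direction. Their median log2 fold-changes were -0.09 and 0.04. Of 17 genes of TGF-β signalling, which induces Snail and Zeb genes in many epithelia, 1 rose. This was Tgfbr3, the type III receptor, with 0.572±0.123 FPKM in untreated cells, 1.71±0.333 after 18 h and 1.60±0.289 after 24 h (log2 fold-change 1.35 at 24 h, limma, adjusted p=0.00598). With no minimum, 3 of the 17 passed the adjusted p, all higher, again beside 11.6% of all genes. Among them Smad3, a signal transducer of the pathway named after its values were seen, had 4.55±0.902 FPKM in untreated cells and 8.97±0.607 after 24 h, just short of the minimum with a log2 fold-change of 0.98 (limma, adjusted p=0.00338).

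**Figure D4:**
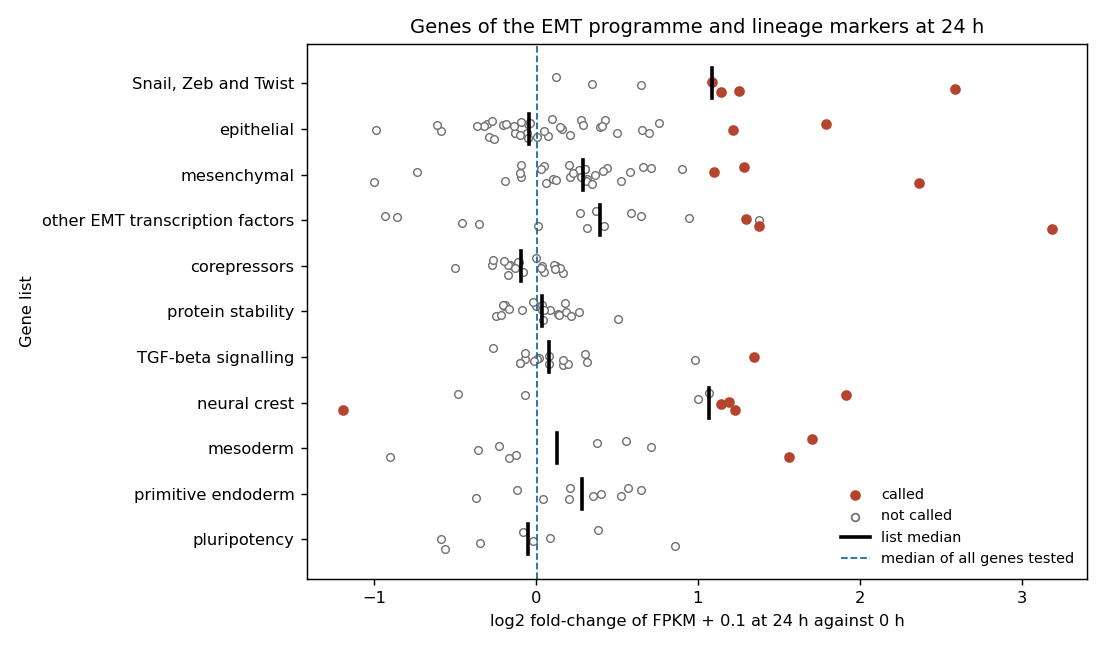
Log2 fold-change of FPKM+0.1 at 24 h against 0 h (horizontal axis) for the genes of each list (rows), with filled points for called genes, a black bar for the list's median and a dashed line for the median of all genes tested. The Snail, Zeb and Twist genes all lie above 0 with a median of 1.09, whereas the epithelial genes spread to both sides of 0 with a median of -0.04.

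Marker genes of other cell types were set beside these changes. Of 9 neural crest genes tested, 4 rose at 24 h (Ngfr, Msx2, Sox8 and Tfap2a), 1 fell (Foxd3), and the median log2 fold-change was 1.07. Ngfr, the low-affinity neurotrophin receptor, rose from 3.70±0.693 FPKM to 14.1±1.72 (log2 fold-change 1.91, limma, adjusted p=0.000129). Foxd3, a factor of both ESCs and early neural crest, fell from 8.63±1.94 to 3.69±0.630 FPKM (log2 fold-change -1.19, limma, adjusted p=0.00469). Msx2, Sox8 and Tfap2a, named after their values were seen, had means below 1 FPKM and log2 fold-changes of 1.23, 1.19 and 1.14. On recovered reads edgeR called 6 of the 9, against 4.06% of all genes in either direction. The 6 defining neural crest markers summed to between 10.4 and 14.8 FPKM per library at 0 h, 17.4 to 18.5 at 18 h and 17.5 to 20.02 at 24 h, and only 2 of the 6 reached a mean of 1 FPKM. These were Ngfr, which rose, and Foxd3, which fell, and the other 4 together summed to 0.622 to 0.836 FPKM at 0 h and 1.22 to 1.32 at 24 h. The part of these markers in the Snail and Zeb values was not tested.

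The 6 defining mesoderm markers summed to 1.72 to 2.72 FPKM at 0 h and 2.0 to 2.49 at 24 h, with Msgn1, a presomitic mesoderm gene named after its values were seen, at 0 in every library. Of 10 mesoderm genes tested, 2 rose at 24 h, Lhx1 and Meox1, both with means below 1 FPKM and named after their values were seen. Lhx1 averaged 0.0175 FPKM at 0 h and 0.249 at 24 h, and Meox1 0.0632 and 0.425. Both passed the filter of 0.1 FPKM only through the dox libraries, so no conclusion is drawn from this count. The 6 primitive endoderm markers summed to 4.31 to 5.31 and 5.07 to 6.02 FPKM, and none of 10 primitive endoderm genes was called at 24 h by limma, edgeR or DESeq2, with 4 at an unadjusted p under 0.05 by limma, where 28.2% of all genes were. Without a minimum fold-change 3 of the 10 passed the adjusted p, all higher, against 11.6% of all genes in either direction. The cells were kept on gelatin, and the 6 fibroblast markers summed to 5.49, 9.11 and 10.9 FPKM in the untreated replicates 1, 2 and 3 and to 6.08, 9.10 and 10.5 at 24 h. The sum was lowest in replicate 1 each time, as was Zeb2, but single markers differed. Thy1, named after its values were seen, was highest in replicate 1 at 0 h and 18 h. Its mean was lower with dox, at 2.08±0.322 FPKM at 0 h and 1.21±0.185 at 24 h. Of 5 fibroblast genes tested, 1 was called at 24 h, Pdgfrb, which was higher, where 2.07% of all genes were called upregulated. With no minimum fold-change 1 of the 5 passed the adjusted p upwards and 1 downwards, against 11.6% of all genes in either direction. Replicate 1 stood apart in other lists too. The mesoderm and primitive endoderm sums were also lowest there at each time point. At 0, 18 and 24 h replicate 1 had 1.72, 1.71 and 2.0 FPKM for mesoderm and 4.31, 4.03 and 5.07 for primitive endoderm. Most of the primitive endoderm sum came from Dab2, with 3.23, 3.07 and 3.99 FPKM in replicate 1, its lowest library each time. Other markers of that list differed. Gata4 and Sox7 were highest in replicate 1 at every time point, whereas Foxa2 was lowest there at both dox times. Dab2, Gata4, Sox7 and Foxa2 were named after their values were seen. The part of these markers in the Zeb2 values was not tested. The pluripotency markers of the labelled cell type were present, with all 8 above a mean of 1 FPKM at each time. Their sum was 1177 to 1838 FPKM at 0 h and 932 to 1538 at 24 h, highest in replicate 1 at every time point, and none of the 8 was called at 24 h by limma, edgeR or DESeq2. Without a minimum fold-change 2 of the 8 passed the adjusted p, both named after their values were seen. Nanog had 40.6±5.51 FPKM at 0 h and 73.4±8.12 at 24 h (log2 fold-change 0.86, limma, adjusted p=0.00735), and Pou5f1 had 371±53.3 and 248±33.4 (-0.58, limma, adjusted p=0.0220). These 2 were also the only ones with an unadjusted p under 0.05 by limma.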

How the data were processed

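Strand-specific libraries of polyadenylated RNA were trimmed with cutadapt 1.9 and aligned with STAR to GRCm38 by the authors. The Ensembl release and the counting tool are not given in the sources used here. The authors deposited FPKM values for 47729 genes, and for 19210 genes a per-library signal, which is CPM scaled to an effective library size. They also deposited the log2 fold-change and the p-value of each of their edgeR 3.16.5 comparisons, which were not used. Whole reads were recovered from the deposited signal, and 100% of its values came out whole within 0.01. No per-sample column was left unmatched.

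Genes whose FPKM averaged 0.1 or more (17951) were fitted as log2(FPKM+0.1) over all 9 libraries in R 4.3.3, on time point alone, with lmFit and a trended eBayes of limma 3.58.1. The study tested counts with edgeR, but the tables hold FPKM and scaled CPM, so edgeR 4.0.16 and DESeq2 1.42.0 on the recovered reads served as alternatives. With 3 libraries against 3, an exact permutation test cannot go below p=0.1, so none was run. The added 0.1 understates the fold-change of low genes. The alternatives were pseudocounts of 1 and 0.01, no filter, a filter at 1 FPKM, median centring, quantile normalization, no trend, only the compared time points, a replicate block, each library left out, and minimum log2 fold-changes of 2 or none. The replicate numbers pair the libraries. Deviations from the time point means correlated at 0.211 to 0.548 in the 9 same-number pairs and at -0.399 to 0.110 in the 18 others, over 11893 genes. The labels give the time points the same replicate numbers and do not say what a number marks.

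The members and lists were chosen with earlier results of these data known. Genes named are the members, those with exons that overlap a member, the 3 most alike to each by Pearson r, Cdh1, Cdh2, Vim, Fn1, Epcam, Esrp1, Tcf3, Tcf4 and Tcf12, and up to 4 per list and direction that were called at 24 h with a mean FPKM of at least 1. Others are said to be named after their values were seen. Coordinates come from GENCODE on GRCm38 and promoter windows from RefSeq. The tests were checked on simulated data. Python 3.11.15, pandas 2.3.3, scipy 1.17.1 and matplotlib 3.10.9 were used.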

Additional observations from a re-analysis of the deposited data

How the results depend on the processing

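No value of the 7 members reversed a call under any alternative run. With a pseudocount of 1, which weighs on genes of a few FPKM, 0 members were called upregulated at 18 h and 1 at 24 h, and the log2 fold-changes were 0.94 for Snai1 and 0.98 for Snai2 at 18 h and 0.90 for Snai1, 0.47 for Zeb1 and 0.54 for Zeb2 at 24 h. A minimum log2 fold-change of 2 left 1 call at each time, since Snai1 stood at 1.19 and 1.15, Zeb1 at 1.09 and Zeb2 at 1.25. With no minimum, Zeb1 at 18 h (0.87) and Twist1 at 24 h (0.65) were called as well, though both adjusted p-values rose above the threshold when some single libraries were left out. Zeb1 at 18 h was also called with a pseudocount of 0.01 (1.02), with edgeR (1.02 with TMM and with DESeq2 size factors, 1.03 with the replicate block) and with DESeq2 (1.02). A mean FPKM of at least 1 left 2 calls at 24 h, because Zeb1 and Zeb2 were then not tested. Zeb2 at 24 h kept a value of 1.25 and lost its call with no filter (limma, adjusted p=0.0610) and with only the compared time points (limma, adjusted p=0.0584). Over each library left out, in fits without the replicate block, the 24 h count ran from 2 to 4, Zeb1 from 0.95 to 1.20 and Zeb2 from 1.01 to 1.48. The replicate block in limma left 2 members called at 18 h and 4 at 24 h and changed no other member's call. The cause of these differences was not tested beyond the settings themselves. At 24 h against 18 h every alternative left the members uncalled. The low reads of Snai2 without dox and of Twist2 throughout limit their precision.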

Other observations

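Some genes of the lists that limma without a block did not call at 24 h also stood out, and were chosen after their values were seen. Gsc, a homeobox gene of the organizer, had 0, 1 and 0 reads in the untreated libraries and 11, 3 and 6 at 24 h, so few that no fold-change is given. It missed the threshold without the replicate block (limma, adjusted p=0.0508), and was called with it (limma, adjusted p=0.0416) and by edgeR (adjusted p=0.0282), while DESeq2 gave no adjusted p. Gsc averaged 0.0110 FPKM at 0 h and 0.203 at 24 h. It passed the filter of 0.1 FPKM only through the dox libraries, so no conclusion is drawn from these calls. Msx1, a homeobox gene of neural crest, had 1.07 (limma, adjusted p=0.0794) and was called with the replicate block (limma, adjusted p=0.0158), though not by edgeR (adjusted p=0.0512). Mal2 was called downregulated at 18 h, with 4.05±0.200 FPKM in untreated cells, 1.96±0.319 after 18 h and 2.0±0.208 after 24 h (mean±s.d., n=3). Without the untreated replicate 1, or without replicate 1 or replicate 3 of 18 h, it was not called. Mmp9, of the mesenchymal list, was called downregulated at 18 h as well, with 0.405±0.140 FPKM at 0 h and 0.118±0.0259 at 18 h, and was called without the untreated replicate 1 but in no other fit that left out a library.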
